A study of Mus musculus with 42 samples.

Results

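The response of Mre11A/A pre-B cells to ionizing radiation was set against the response of cells that lack 1 of 3 proteins acting in the chromatin around a DNA break. The comparison used 24 of 42 arrays and 12 of 21 cell lines: 3 Mre11A/A lines on one side, and on the other the 9 lines that were 53bp1-/-, H2ax-/- or Mdc1-/-, with 3 lines each. WT, Atm-/- and Scid lines were on neither side, but the tests took their estimate of spread from all 21 lines. Arrays were assigned to the sides by their labelled genotype and treatment, and the comparison itself was chosen with earlier results of these data known. For every line the change was the log2 value 2 h after 1 Gy of gamma rays from a cesium source minus that of its untreated (mock) array, and the difference was the mean change of the 3 Mre11A/A lines minus the mean change of the 9 chromatin-factor lines. A negative difference therefore means that the signal went up less, or went down more, in Mre11A/A lines. The Mre11A/A animals were labelled hypomorphs, which keep some function of the gene, and the labels list the other 3 mutants by the gene they lack. Every line on both sides came from bone marrow of a mouse aged 3 to 5 weeks that carried the Em-Bcl2 transgene, in which an immunoglobulin enhancer drives the survival protein Bcl2 in B-lineage cells, and had been transformed with a pMSCV-v-abl retrovirus, which carries an oncogenic tyrosine kinase. The lines are called biological replicates in the labels. All values thus come from transformed, Bcl2-protected pre-B cells at 1 dose and 1 time.

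Mre11 is the nuclease subunit of the complex that binds the broken DNA end and activates the kinase Atm. Atm then phosphorylates the histone variant H2ax beside the break, the adaptor Mdc1 binds that mark, and 53bp1 is recruited to the modified chromatin, where it protects ends and favours end joining. Atm also stabilizes the transcription factor p53, and with the IkB kinase complex it releases NF-kB, so that p53 and NF-kB target genes report on the signal that leaves the break. In pre-B cells such breaks also arise normally, when the Rag1 and Rag2 nuclease cuts antigen receptor genes.

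The targeted genes were checked first. The stronger Mre11a probe set gave a signal of 559 ± 101 on the Mre11A/A arrays (SD, n = 6), against means of 1273 to 1349 in the chromatin-factor genotypes, whereas a dimmer one was higher in Mre11A/A lines (251 against 155 to 174). H2ax gave 69.5 ± 30.7 in H2ax-/- lines and 10781 to 11062 in the other 3 genotypes, Mdc1 gave 60.7 ± 73.1 in Mdc1-/- lines and 412 to 535 elsewhere, and Trp53bp1, which encodes 53bp1, gave 978 ± 221 in 53bp1-/- lines and 1667 to 2365 elsewhere (SD, n = 6). Each n is 6 arrays, 2 from each of 3 lines. Another Trp53bp1 probe set was also lowest in 53bp1-/- lines (393 against 657 to 1137), while a dimmer one was not (121 against 102 to 146). All 9 pre-B markers on the array were above the array median on all 24 arrays, 4 of 6 T cell markers were above it on none, and of the myeloid, erythroid and stromal ones only Csf1r and Vim were above it on all. In such bulk samples fewer cells of a type and less RNA per cell cannot be told apart. Mre11A/A lines 2 and 3 had high Eif2s3y (2466 to 3134), a Y-linked gene, while line 1 and all 9 chromatin-factor lines had high Xist (at least 8935), so that most of the Mre11A/A side differs from the other side in sex as well as genotype; the part of this in the results was not tested beyond the value for line 1 alone given below. Array medians ran from 62.3 to 80.8 on the 24 arrays and up to 115 on all 42. The 3 lines per genotype limit the precision.

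Of 12363 genes tested, 5 (0.0404%) had a different radiation response in Mre11A/A lines and in the chromatin-factor lines at an adjusted p under 0.05 (limma on the changes per line, Benjamini-Hochberg). Mob3a and Bcl3 were lower in Mre11A/A lines, 0.0162% of genes, and Cenpf, Aspm and St8sia4 were higher, 0.0243% of genes. At an unadjusted p under 0.05 there were 872 genes, or 7.05%, with 463 lower and 409 higher. In all 5 called genes the chromatin-factor lines responded and the mean change of Mre11A/A lines lay between -0.07 and 0.14. The 3 changes of Mre11A/A lines lay outside all 9 of the other lines for each of the 5. Across all genes they lay below all 9 for 1.34% and above all 9 for 1.2%. The 5 were picked by a test on these same changes, so their lack of overlap describes them and is not separate support. The count depends on the fit: with only the 12 lines in the fit 95 genes were called (45 higher and 50 lower, all 5 among them; 0.364% and 0.404% of genes), with the 9 lines as 1 group 57 were called (0.461%), and with the arrays of a line taken as unpaired none were called, with 190 genes at an unadjusted p under 0.05. Without Mre11A/A line 1, 2 or 3 the calls were 3, 2 and 2, Mob3a being called each time, and with Mre11A/A line 1 alone, an arm of 1 line, there were 0 calls and 537 genes at an unadjusted p under 0.05. The differences in that fit were -1.28 for Mob3a, -2.85 for Bcl3, 0.63 for Cenpf, 0.54 for Aspm and 0.41 for St8sia4.

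**Figure D1:**
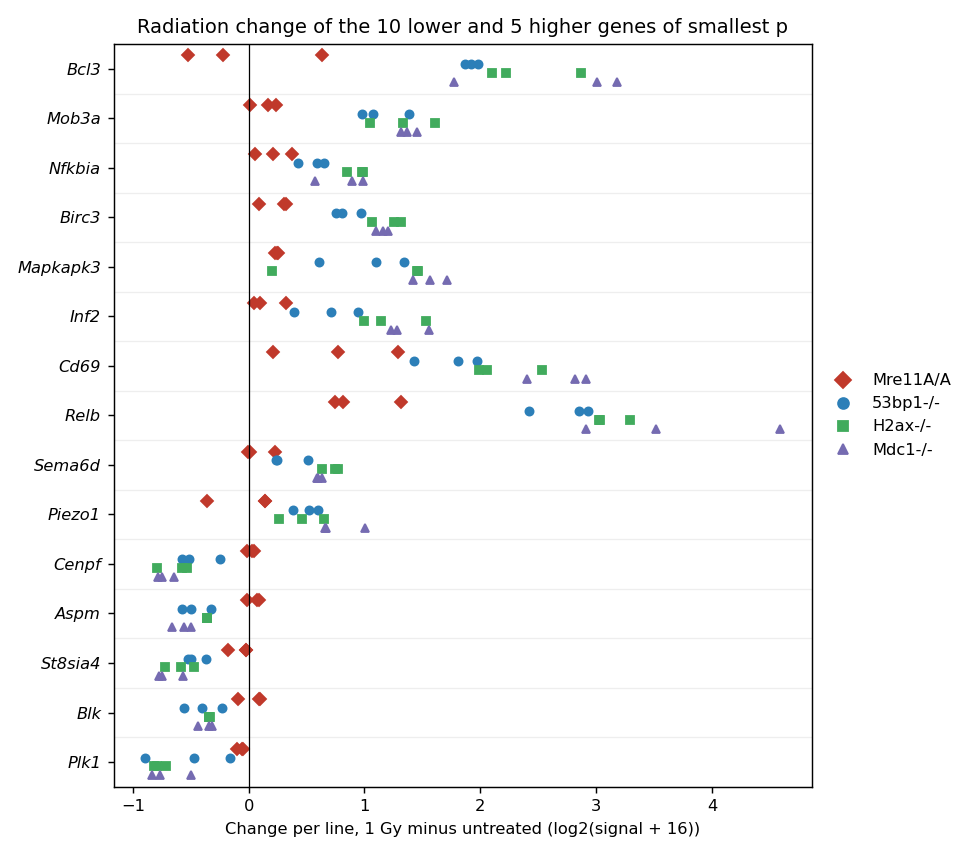
Change per line after 1 Gy (x axis, log2 of signal plus 16, irradiated minus untreated) for 15 genes, namely the 10 lower and the 5 higher in Mre11A/A lines that had the smallest p of the difference on their side; red diamonds are the 3 Mre11A/A lines and the other symbols the 9 chromatin-factor lines. For Mob3a the Mre11A/A changes were 0.01 to 0.23 and the others 0.98 to 1.61.

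The promoters of Mob3a and Bcl3, of the NF-kB inhibitor gene Nfkbia, and of Aspm and Cenpf are shown because these genes head the lower and the higher side by p. Nfkbia missed the threshold (limma, adjusted p = 0.083), and St8sia4, which was called, is not shown. The sequences run from 250 bases before to 30 bases after the gene start, 5′ to 3′, from RefSeq (GRCm38.p6). Capitals mark matches to an NF-kB pattern, which is GGG, any 3 bases and then TTCC or TCCC, and to TTTGAA, the CHR element known from mitotic promoters, both searched on both strands.
Mob3a, chr10:80701791-80702070, minus strand: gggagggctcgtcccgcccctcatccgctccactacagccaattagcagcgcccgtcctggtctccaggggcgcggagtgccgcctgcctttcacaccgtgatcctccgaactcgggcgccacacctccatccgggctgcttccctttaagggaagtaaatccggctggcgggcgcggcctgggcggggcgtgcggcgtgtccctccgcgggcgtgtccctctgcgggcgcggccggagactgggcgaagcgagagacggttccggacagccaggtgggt
Bcl3, chr7:19822726-19823005, minus strand: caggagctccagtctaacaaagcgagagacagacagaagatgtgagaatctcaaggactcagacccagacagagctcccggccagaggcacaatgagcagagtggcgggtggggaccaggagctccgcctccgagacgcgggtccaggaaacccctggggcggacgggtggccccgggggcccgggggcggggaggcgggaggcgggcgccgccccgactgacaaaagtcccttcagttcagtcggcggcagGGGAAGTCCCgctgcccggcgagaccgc
Nfkbia, chr12:55492618-55492897, minus strand: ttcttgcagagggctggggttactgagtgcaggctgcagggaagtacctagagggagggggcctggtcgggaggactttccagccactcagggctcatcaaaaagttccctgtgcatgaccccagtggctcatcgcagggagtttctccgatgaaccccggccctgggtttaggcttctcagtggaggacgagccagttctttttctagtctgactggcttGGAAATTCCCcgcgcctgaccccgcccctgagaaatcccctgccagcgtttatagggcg
Aspm, chr1:139454523-139454802, plus strand: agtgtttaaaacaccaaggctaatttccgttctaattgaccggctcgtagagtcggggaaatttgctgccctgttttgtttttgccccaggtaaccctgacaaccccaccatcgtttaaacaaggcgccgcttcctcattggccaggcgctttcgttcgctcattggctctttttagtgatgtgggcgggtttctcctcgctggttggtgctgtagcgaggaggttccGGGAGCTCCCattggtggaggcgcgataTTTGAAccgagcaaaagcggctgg
Cenpf, chr1:189688057-189688336, minus strand: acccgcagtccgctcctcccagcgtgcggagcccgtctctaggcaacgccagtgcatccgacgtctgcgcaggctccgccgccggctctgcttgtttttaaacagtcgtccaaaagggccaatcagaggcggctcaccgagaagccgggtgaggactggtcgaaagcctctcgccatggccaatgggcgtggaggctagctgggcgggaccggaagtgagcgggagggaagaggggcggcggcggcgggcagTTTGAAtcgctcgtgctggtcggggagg
The NF-kB pattern was matched in 1 place each in Bcl3, Nfkbia and Aspm, and TTTGAA in 1 place each in Aspm and Cenpf, while Mob3a held neither in this window. Of 32851 promoters of this length, 9.71% hold the NF-kB pattern and 17.2% hold TTTGAA. A match is a run of letters and not a shown binding site.

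Mob3a encodes a member of the MOB family of kinase-binding proteins. Irradiated Mre11A/A lines had signals of 532, 457 and 569 (lines 1 to 3), and the irradiated chromatin-factor lines had a lowest, median and highest signal of 924, 1152 and 1483. Untreated Mre11A/A lines had 529, 387 and 505, and untreated chromatin-factor lines 372, 452 and 520. The untreated groups overlapped and the irradiated ones did not. Mob3a rose by 1.28 ± 0.07 in the chromatin-factor lines (limma SE, 9 lines) and its change in Mre11A/A lines was 0.14 ± 0.13 (3 lines). The difference was -1.15 ± 0.15 (limma, adjusted p = 0.0008). Each SE of a change or difference, here and below, uses 1 spread per gene that limma pooled over 21 lines of 7 genotypes. It is not the spread of the 9 or the 3 lines alone.

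Bcl3, an atypical member of the IkB family that binds NF-kB p50 and p52 dimers, had irradiated signals of 29.4, 65.4 and 79.1 in Mre11A/A lines, against 98.6, 760 and 924 (lowest, median, highest) in chromatin-factor lines. The untreated signals were 49.3, 79.0 and 45.4 in Mre11A/A lines and 17.6, 92.2 and 208 in chromatin-factor lines. All irradiated Mre11A/A values were below all 9 others, and the untreated ranges overlapped. The difference was -2.36 ± 0.37 on the log2 scale (limma, adjusted p = 0.0054), with Bcl3 up by 2.32 ± 0.19 in the chromatin-factor lines. In Mre11A/A lines the signals lie near or below the array median, where the 16 added before the logarithm understates changes.

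Cenpf encodes a kinetochore protein made before mitosis and Aspm a protein of the spindle pole. Cenpf had irradiated signals of 2975, 3227 and 3318 in Mre11A/A lines, against 1644, 1878 and 2198 (lowest, median, highest) in chromatin-factor lines. Its untreated signals were 2922, 3127 and 3348 in Mre11A/A lines and 2168, 2847 and 3825 in chromatin-factor lines. Cenpf thus separated the groups only after irradiation. It fell by 0.60 in the chromatin-factor lines, where the smallest drop was 0.25, in 53bp1-/- line 1, and the difference was 0.62 ± 0.10 (limma, adjusted p = 0.0054). Aspm had irradiated signals of 2522, 2442 and 2903 in Mre11A/A lines, against 1320, 1694 and 2222 in chromatin-factor lines, and untreated signals of 2399, 2464 and 2723, against 1653, 2534 and 2855. Its groups likewise overlapped only when untreated, and the difference was 0.52 ± 0.08 (limma, adjusted p = 0.0041). Probe sets did not speak alike for every gene: the other 2 of Cenpf gave 0.20 and 0.49, and the 4 other, dimmer ones of Aspm gave 0.39, 0.05, 0.05 and -0.07.

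St8sia4, which encodes a sialyltransferase that builds polysialic acid, differed from the others in its starting level. Irradiated Mre11A/A lines had 3826, 3769 and 3929, against 1226, 1543 and 1959 in chromatin-factor lines, and untreated Mre11A/A lines had 4334, 3822 and 3998, against 1847, 2312 and 3022. The Mre11A/A lines were above every chromatin-factor line under both conditions. St8sia4 fell by 0.59 in the chromatin-factor lines and the difference of changes was 0.51 ± 0.08 (limma, adjusted p = 0.0077), while a second probe set, of much lower signal, gave 0.05.

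**Figure D2:**
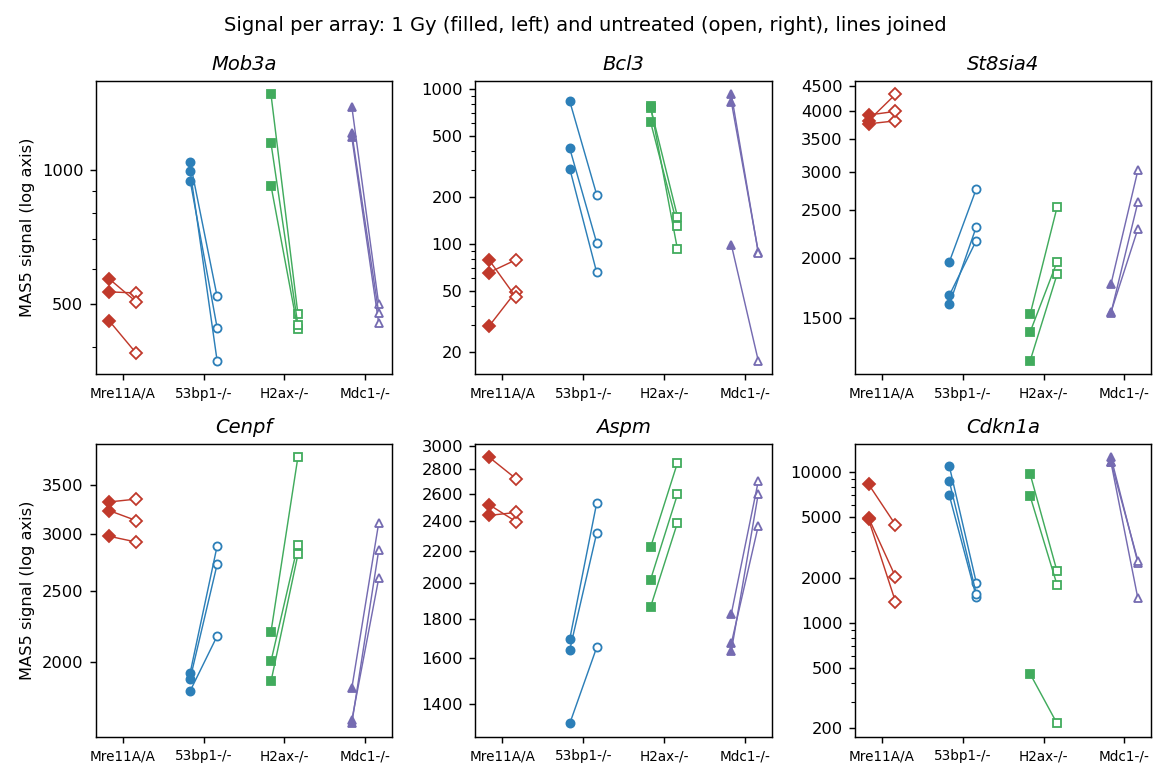
Signal on each array (log axis) of the 5 called genes and of Cdkn1a, with irradiated arrays filled and on the left, untreated arrays open and on the right, and the arrays of a line joined; colours are genotypes, Mre11A/A at the left. Mob3a reached 569 at most in irradiated Mre11A/A lines and at least 924 in irradiated chromatin-factor lines.

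The genes that came next missed the threshold and are given as values, with limma's adjusted p in parentheses where it differed from 0.090. Among the 8 on the lower side, Relb, Nfkbia, Birc3 and Cd69 belong to NF-kB signalling or to lymphocyte activation. Relb, an NF-kB subunit, had irradiated signals of 95.9, 172 and 178 in Mre11A/A lines, against 326, 596 and 956 in chromatin-factor lines, and a difference of -2.21 ± 0.49 (SE). Nfkbia, the inhibitor that NF-kB itself induces, differed by -0.56 (0.083) and by -0.43 to -0.76 over its 4 other probe sets. Birc3, an inhibitor of apoptosis, differed by -0.83 and Cd69, an early activation antigen of lymphocytes, by -1.46. The other 4 were Mapkapk3 (-0.97), a kinase downstream of p38, Inf2 (-0.93), a formin, Sema6d (-0.47), a semaphorin, and Piezo1 (-0.61), a mechanically-gated channel. For Sema6d 1 of 3 further probe sets gave 0.31. Irradiated Mapkapk3 signals averaged 1099 in Mre11A/A lines and 1147 in chromatin-factor lines, and untreated ones 928 and 487. Its changes overlapped, at 0.23 to 0.25 in Mre11A/A lines and 0.20 to 1.71 in chromatin-factor lines. On the higher side Blk, a kinase of B-lineage cells, differed by 0.40 (0.061) and Plk1, the mitotic kinase, by 0.59 (0.074). Beyond these, Xist, the RNA that silences an X chromosome in female cells, had a difference of 1.46 (0.082), with changes of -0.04, 1.54 and 2.73 in Mre11A/A lines 1 to 3, against -0.22 to 0.08 in chromatin-factor lines. With line 1 alone it was 0.014.

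NF-kB target genes, taken as a list, had a smaller median change in Mre11A/A lines than in the chromatin-factor lines. Lists of subunits, inhibitors, surface or secreted proteins and survival genes held 37 measured genes of 39, and their median difference was -0.56, against -0.01 over all genes. The median change was 0.08 in Mre11A/A lines and 0.45 in the chromatin-factor lines. Line by line the median was 0.06 to 0.10 in Mre11A/A lines and 0.34 to 0.81 in the others, so the ranges did not overlap. Of the 37, 31 had a difference below 0 (52.2% of all genes do) and 17 were lower at an unadjusted p under 0.05 (3.75% of all genes). In this list 1 was called lower (0.0162% of all genes) and 9, or 24.3%, had no overlap of lines (1.34% of all genes). The median difference was -0.34 without Mre11A/A line 3, -0.29 with Mre11A/A line 1 alone, -0.35 with a pseudocount of 64 and -0.28 over the genes above the median on all 42 arrays.

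Within the NF-kB genes the roles differed in size. Among the 4 measured subunits all differences were below 0, with a median of -0.28; Relb had the largest and Rela, the main activating subunit, -0.28 (unadjusted p = 0.041, limma, adjusted p = 0.67). All 10 inhibitors were below 0, with a median of -0.56. In these feedback genes the 9 that were called higher in the chromatin-factor response (4.96% of all genes were) included Nfkbie, an IkB protein, with changes of 0.86 in Mre11A/A lines and 1.77 in the others, Nfkbib (0.02 and 0.58), Nfkbid (0.43 and 1.09), Nfkbiz (0.53 and 0.70) and Tnfaip3, the ubiquitin-editing enzyme A20 (0.45 and 1.40). Nfkbiz differed by -0.17, and its other probe sets by -0.40 and 0.05. Surface and secreted products had a median of -0.60 over 15 genes, with 11 below 0. Cd40, the costimulatory receptor, had irradiated signals of 64.7, 179 and 211 in Mre11A/A lines, against 105, 301 and 622, and Icam1, an adhesion molecule, 1203, 1084 and 1388, against 2225, 2758 and 3724. The Cd40 ranges overlapped and those of Icam1 did not. The differences were -1.33 and -0.90, neither called. The 8 survival genes had a median of -0.12: Birc3, Gadd45b (-1.11) and Ier3 (-1.61), which are stress-induced, had larger differences, while Xiap, Sod2 and Bcl2l1 were at 0.02, -0.06 and -0.08. Other, dimmer probe sets of Xiap ran from -0.45 to 0.43, and those of Bcl2l1 gave 0.09 and 0.51. None of the 8 genes was called. The kinases and adaptors that relay the signal to NF-kB, 12 genes, had a median of -0.07 and no calls.

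p53 target genes had a median change above 0 in Mre11A/A lines, and it was smaller than the median change of the chromatin-factor lines. The 5 p53 lists held 40 measured genes of 47, with a median change of 0.45 in Mre11A/A lines and 0.79 in the chromatin-factor lines and a median difference of -0.34. In the Mre11A/A response 1 of the 40, Cdkn1a, was called (0.0324% of all genes were called higher). Of the 40, 29 had a difference below 0 (52.2% of all genes do) and 12 were lower at an unadjusted p under 0.05 (3.75% of all genes). Called were 0 of them (0.0162% of all genes were called lower), whereas Btg2 and Phlda3 were called in the fit of 12 lines (0.404% of all genes lower). The line medians were 0.37, 0.39 and 0.51 in Mre11A/A lines and 0.77 to 1.13 in 8 chromatin-factor lines, but 0.08 in H2ax-/- line 2, which stands apart for these genes and not for NF-kB (0.42). In that line Cdkn1a had a signal of 460 irradiated and 216 untreated, against at least 6912 and 1453 in the other 8 lines. Only 1 of 40 genes, or 2.5%, had no overlap of all lines (1.34% of all genes lay below all 9), against 15, or 37.5%, without this line (2.24% of all genes). Leaving out a line can only raise such a count, and this line was chosen after seeing its low changes in these same genes.

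Cdkn1a, which encodes p21, a brake on the cell cycle, was called in both responses. Irradiated Mre11A/A lines had 4860, 4978 and 8304, against 460, 9697 and 12558 (lowest, median, highest) in chromatin-factor lines, and untreated Mre11A/A lines had 1385, 2024 and 4473, against 216, 1786 and 2586. Line 3 was the highest of the 3 both irradiated and untreated. Cdkn1a rose by 1.33 ± 0.18 in Mre11A/A lines and 2.20 ± 0.10 in the others, a difference of -0.88 that missed the threshold (limma, adjusted p = 0.14). It passed without H2ax-/- line 2 (-0.99, limma, adjusted p = 0.030), the line with the smallest rise of the 9 (1.04). Among the arrest genes (median -0.40, 11 genes) Btg2, an antiproliferative factor, had changes of 0.15, 0.14 and 0.21 in Mre11A/A lines, below all 9 others at 0.33 to 1.68. Genes that restrain p53, with a median of -0.20 over 5, included Mdm2, its ubiquitin ligase, which had mean changes of 0.87 in Mre11A/A lines and 1.18 in the others, and Ppm1d, a phosphatase (0.36 and 0.75). Death genes had a median of -0.50 over 10, and 8 had a lower change at an unadjusted p under 0.05 (3.75% of all genes). These were Bbc3 and Pmaip1, which encode Puma and Noxa, Fas, Pidd1, Apaf1, Aen, Ei24 and Phlda3. Pmaip1 started higher in Mre11A/A lines, with untreated signals of 1576, 1180 and 1279, against 83.4, 375 and 897 (lowest, median, highest) in chromatin-factor lines. Its irradiated signals were 1936, 1916 and 2599, against 209, 671 and 2686, so its smaller rise was not a lower level. Phlda3, an Akt inhibitor, had mean changes of 0.89 in Mre11A/A lines and 1.88 in the others, and Fas, a death receptor, of 1.00 and 2.32. The repair and nucleotide genes had a median of 0.02 over 9, with Polk, a translesion polymerase, at 1.15 and 1.62, and the metabolic genes -0.32 over 5, with Sesn2, a sestrin, at 1.29 and 1.91.

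**Figure D3:**
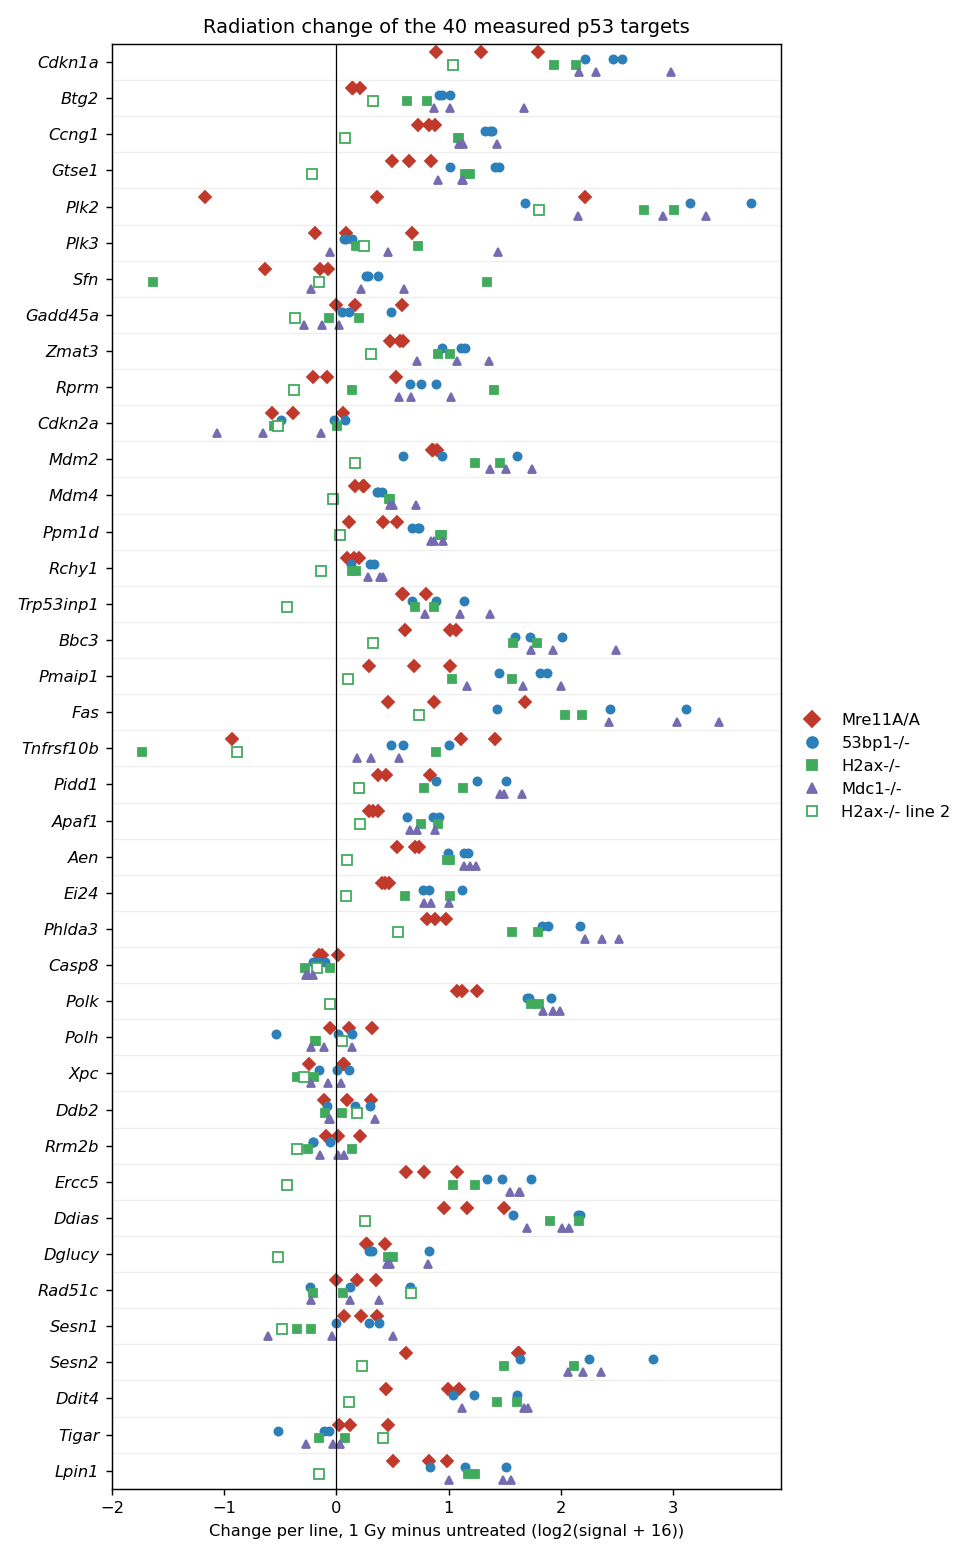
Change per line after 1 Gy (x axis, log2 of signal plus 16) of the 40 measured p53 target genes, in the order arrest, feedback, death, repair and metabolism; red diamonds are Mre11A/A lines, open green squares H2ax-/- line 2. H2ax-/- line 2 had a median change of 0.08 over these genes, and the other 8 chromatin-factor lines 0.77 to 1.13.

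The median difference of mitotic genes lay in the other direction. Of 29 measured genes of 30, 27 had a difference above 0 (47.8% of all genes do), with a median of 0.21. At an unadjusted p under 0.05, 15 were higher (3.31% of all genes). Called higher were 2 (0.0243% of all genes), and 9, or 31%, had no overlap of lines (1.2% of all genes). Without H2ax-/- line 2 it was again 9, beside 1.47% of all genes. The list had a median change of -0.05 in Mre11A/A lines and -0.26 in the chromatin-factor lines, in which 23 of 29 were called lower (5.45% of all genes were). The medians of the 3 Mre11A/A lines were all -0.05 and those of the others -0.11 to -0.40. Kif2c, a kinesin that removes tubulin from microtubule ends, had mean changes of 0.01 in Mre11A/A lines and -0.47 in the others (limma, adjusted p of the difference 0.090). In contrast, genes of the G1/S step and replication had a median difference of -0.02 over 29, with 0 called. Within that list Ccnd2, cyclin D2, had mean changes of -0.13 in Mre11A/A lines and 0.24 in the others. Myc had mean changes of -0.36 and -0.59, a difference of 0.24 that was not called.

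WT lines, which belong to neither side, gave a list of radiation genes. They called 247 genes up (2% of those tested) and 218 down (1.76%) after radiation. Of the 247, 232 or 93.9% had a difference below 0 (52.2% of all genes do), with a median of -0.34: the median change was 0.26 in Mre11A/A lines and 0.61 in the chromatin-factor lines. Of the 218, 204 or 93.6% had a difference above 0 (47.8% of all genes do), with a median of 0.21: the median change was -0.04 in Mre11A/A lines and -0.26 in the chromatin-factor lines. Leaving the p53 and NF-kB lists aside, 197 of the remaining 212 genes up in WT were below 0, with a median of -0.31. Mre11A/A lines kept the WT direction for 212 of the 247 and for 140 of the 218, and chromatin-factor lines for 241 and 212. Over all genes the median change was -0.02 in Mre11A/A lines and -0.01 in chromatin-factor lines, so more genes lay below 0 than above it.

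**Figure D4:**
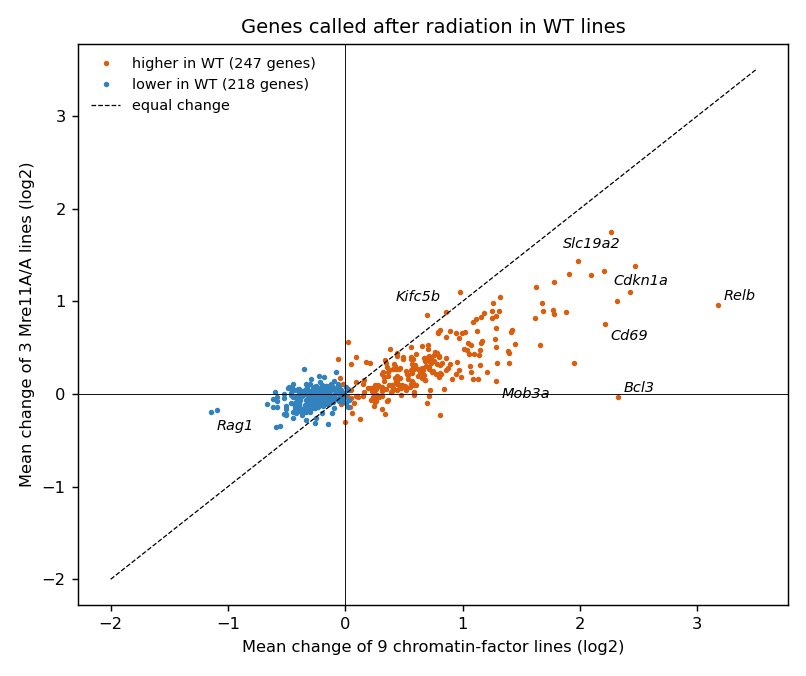
Mean change of the 3 Mre11A/A lines (y axis, log2) against the mean change of the 9 chromatin-factor lines (x axis, log2) for the genes called after radiation in WT lines, 247 up in WT (orange) and 218 down in WT (blue), with the line of equal change dashed. Most orange points lie below the line and most blue points above it.

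**Figure D5:**
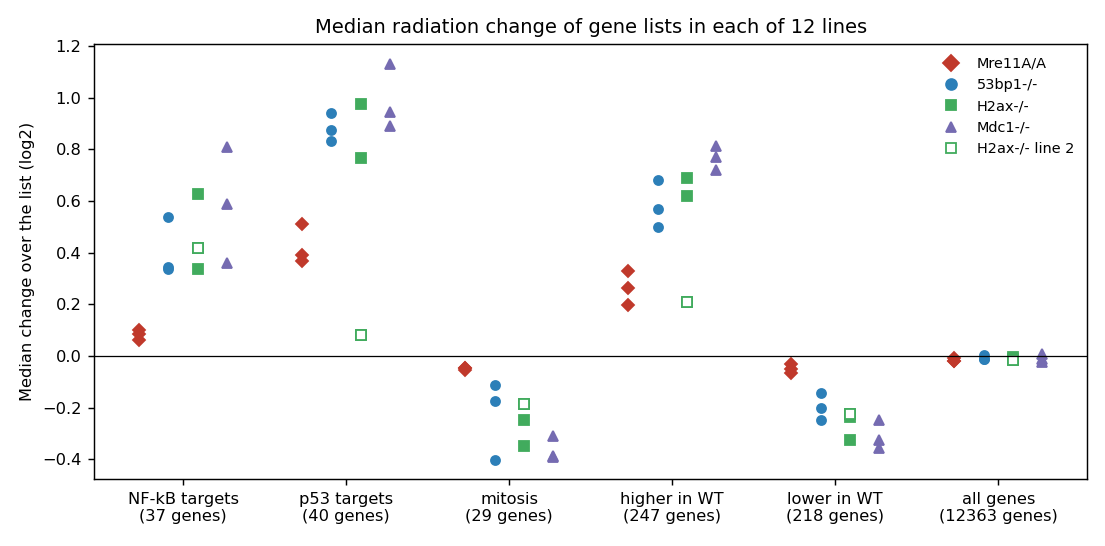
Median change over each gene list (y axis, log2) in each of the 12 lines, Mre11A/A at the left of each cluster, with H2ax-/- line 2 as an open square. NF-kB medians were 0.06 to 0.10 in Mre11A/A lines and 0.34 to 0.81 in the others, and over all genes every line lay near 0.

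On its own, the Mre11A/A response had 4 called genes, all higher (0.0324%), with 549 genes (4.44%) at an unadjusted p under 0.05, while the chromatin-factor response had 613 genes higher (4.96%) and 674 lower (5.45%). The sides have 3 and 9 lines, so the counts do not compare their size. Of the genes called in the chromatin-factor response the Mre11A/A change had the same sign for 508 of 613 and 508 of 674. Over all genes the median Mre11A/A change was -0.02, so more genes lay below 0 than above it. Besides Cdkn1a the called genes were Slc19a2, a thiamine transporter, Kifc5b, a kinesin, and Xist. Slc19a2 had irradiated signals of 2410, 3180 and 3618 in Mre11A/A lines, against 554, 5274 and 5975 in chromatin-factor lines, and untreated ones of 942, 1102 and 1321, against 462, 1034 and 1464. It rose by 1.43 in Mre11A/A lines and 1.98 in the others. Kifc5b rose by 0.89 and 0.86 and the difference was 0.03 (95% interval -0.33 to 0.38). The Xist call came from lines 2 and 3, with irradiated signals of 119 and 122, against 30.5 and 4.84 untreated, far under the 11644 and 11964 of line 1, and its 2 other probe sets gave differences of 0.78 and -0.54. Counts of this response were 0, 1 and 1 without Mre11A/A lines 2, 1 or 3 and 9 to 21 without 1 of the H2ax-/- lines.

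Against single genotypes, which share the Mre11A/A lines, the difference was called for 0 genes against 53bp1-/- (467 genes, 3.78%, at an unadjusted p under 0.05), 1 lower against H2ax-/- (0.00809%; 6.28% at an unadjusted p under 0.05) and 7 lower (0.0566%) and 4 higher (0.0324%) against Mdc1-/- (8.28% at an unadjusted p under 0.05). Mob3a differed by -1.01, -1.20 and -1.24 against 53bp1-/-, H2ax-/- and Mdc1-/- (limma, adjusted p = 0.085, 0.012 and 0.0049). Bcl3 differed by -1.96, -2.44 and -2.69, and was called only against Mdc1-/-. Cenpf differed by 0.47, 0.65 and 0.75, in the same order. Whether the 3 chromatin-factor responses differ among themselves was asked by a moderated F test, which called 0 genes, with 586 (4.74%) at an unadjusted p under 0.05. The Mdc1-/- comparison gave 32 calls without H2ax-/- line 2, 2 without Mdc1-/- line 2 or 3, and 5, 2 and 5 without Mre11A/A lines 1, 2 and 3.

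The other lists of processes had no calls and medians between -0.16 and 0.04. Break signalling genes had a median difference of 0.04 over 16, end joining 0.01 over 10, homologous recombination -0.10 over 9, the Bcl2 family -0.05 over 12, Myc partners -0.05 over 13, interferon genes -0.11 over 9, heat shock and unfolded protein genes -0.06 over 14, glycolysis -0.01 over 12, homing and activation genes 0.01 over 14, and immediate early genes -0.16 over 16. B-lineage genes had a median of 0.01 over 24, but single members changed in the chromatin-factor lines: Rag1 and Rag2 fell by 1.14 and 1.09 there, against changes of -0.20 and -0.18 in Mre11A/A lines, and Spib, a B-cell transcription factor, rose by 1.05, against 0.44. Rag1 had irradiated signals of 113, 388 and 327 in Mre11A/A lines, against 80.8, 462 and 1080, and untreated ones of 136, 395 and 413, against 299, 972 and 1541. Its levels overlapped under both conditions while its changes did not, and the difference of 0.95 missed the threshold (limma, adjusted p = 0.090). Swap70, a signalling adaptor of B cells, had mean changes of 0.16 in Mre11A/A lines and 1.13 in the others.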

How the data were processed

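The authors deposited linear probe-set intensity values (MAS5, per the submitters' processing notes) from RNA labelled with biotin by the one-cycle protocol, per the labels. The 2% trimmed mean was 500 on every array. Of 45101 probe sets, 64 were controls, and 28260 lay above their array median on at least 3 arrays. Each of 12363 genes was represented by its brightest kept probe set, named from the platform annotation. Values were tested as log2(signal + 16).

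Arrays of a line were paired by genotype and replicate number. Within the 21 pairs the deviations from the group mean had correlations of 0.354 to 0.643, and of at most -0.0526 between different numbers. Deviations within a group of 3 sum to 0, so the negative values follow in part from the centring and are not separate support. In R 4.3.3, limma 3.58.1 fitted the changes of all 21 lines by genotype, with 14 residual degrees of freedom and an intensity trend, with two-sided p-values that were adjusted within each comparison (Benjamini-Hochberg). Spread is that between lines of a genotype, pooled over all 7 genotypes. Named genes were the targeted genes, the called genes of the difference, filled up by smallest p with genes that missed the threshold to 10 lower and 5 higher, calls in the Mre11A/A response, any p53 or NF-kB list member and up to 4 members of each other list; Cenpf and other list members fall under more than 1 of these. The members and the lists were chosen with earlier results of these data known. The 28 lists were described by counts and medians. Fits were tested on simulated data. Alternatives were another pseudocount, scaling, filter, variance model, set of lines in the fit and no pairing. After seeing the data, Mre11A/A lines with Eif2s3y and H2ax-/- line 2 were also left out. So were the lines of the 2 arrays with the highest medians. Plots used Python 3.11.15 and matplotlib 3.10.9.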

Additional observations from a re-analysis of the deposited data

Results flagged for a closer look

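H2ax-/- line 2 lay far from the other 8 chromatin-factor lines for the change after radiation of several named genes, by Dixon's test, which flags about 1 in 20 groups by chance. Only genes named in the text and list medians were put to this test, and many of these genes were p53 targets. The same lines gave all the flags, so the flags are not independent and the chance rate is no measure of their number. Its changes were 0.25 for Slc19a2, -0.077 for Kifc5b, 0.073 for Ccng1, 0.034 for Ppm1d, 0.32 for Bbc3, 0.21 for Apaf1, 0.092 for Aen, 0.086 for Ei24 and 0.55 for Phlda3. They were -0.054 for Polk, 0.25 for Ddias, -0.44 for Ercc5, 0.12 for Ddit4, 0.26 for Ier5 and 0.36 for Pvt1, and its median over the p53 lists was 0.079, against 0.77 in the nearest other line. What sets this line apart was not tested. Single lines of other genotypes stood apart for 1 or 2 genes: Mdc1-/- line 2 with a change of 4.59 for Relb, and 53bp1-/- line 1 with -0.25 for Cenpf and 0.35 for Swap70.

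The radiation changes of Mre11A/A lines differed from those of the chromatin-factor lines by the test of the difference for 5 genes: Bcl3 by -2.36, Mob3a by -1.15, Cenpf by 0.62, Aspm by 0.52 and St8sia4 by 0.51.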

How the results depend on the processing

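The difference had 5 called genes. Without the replicate block, that is with the arrays of a line unpaired, calls were 0 for the difference, 0 for the Mre11A/A response, 226 for the chromatin-factor response (1287 paired), and 0 against H2ax-/- and 0 against Mdc1-/-. The medians over genes called in WT lines, a different set in that fit, were then -0.91 (up) and 0.30 (down). With only the 12 lines in the fit, calls were 95 for the difference, 16 for the Mre11A/A response, 4 against 53bp1-/-, 59 against H2ax-/- and 159 against Mdc1-/-. Among the 95 (0.768% of all genes) were 10 of the 37 NF-kB genes, 2 of the 40 p53 genes and 7 of the 29 mitotic genes. With the 9 lines as 1 group, calls were 57 for the difference and 1 for the Mre11A/A response. A pseudocount of 64 gave 18 calls against Mdc1-/- and an NF-kB median of -0.35. Quantile normalization gave 8 for the difference and 21 against Mdc1-/-. A filter on all 42 arrays gave 9 for the Mre11A/A response, 23 against Mdc1-/- and an NF-kB median of -0.28. Without the intensity trend the counts were 2, 0, 1, 0 and 2 (difference, Mre11A/A response, 53bp1-/-, H2ax-/-, Mdc1-/-). Chosen after seeing the data, leaving out Atm line 2 and WT line 4 gave 11, 17, 2 and 37 (difference, Mre11A/A response, 53bp1-/-, Mdc1-/-). Irradiated arrays of these 2 lines had the highest medians (115 and 103). Mre11A/A line 1 alone gave 0 calls for the difference, the Mre11A/A response, H2ax-/- and Mdc1-/-, an NF-kB median of -0.29 and a median of 0.26 for genes down in WT. Leaving out 1 line at a time gave 2 to 8 calls for the difference, 0 to 21 for the Mre11A/A response, 943 to 1238 for the chromatin-factor response, 0 to 1, 0 to 2 and 2 to 32 against 53bp1-/-, H2ax-/- and Mdc1-/-, and 0 to 3 for the F test. Medians ran from -0.44 to -0.26 (p53), -0.57 to -0.34 (NF-kB), -0.40 to -0.32 (up in WT) and 0.20 to 0.23 (down in WT). The Kifc5b difference of 0.03 turned to -0.016 under quantile normalization and to -0.017, -0.020 and -0.068 without Mre11A/A line 1, Mre11A/A line 3 and H2ax-/- line 2, and over all lines left out in turn it ran from -0.068 to 0.11. For single named genes, outside the lines left out in turn, 650 values kept sign and side of the threshold, 48 passed it only under the alternative and 13 no longer passed. The causes were not tested.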
